A study of Homo sapiens with 12 samples.

Results

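The response of U2932 cells to ofatumumab (OF) was measured as the difference between 2 libraries treated with OF and 2 treated with an isotype control, 4 of the 12 RNA-seq libraries in the series. U2932 is an established cell line of diffuse large B-cell lymphoma (DLBCL), of the activated B-cell subtype, labelled wild type. OF is a monoclonal antibody to CD20, the B-cell surface protein encoded by MS4A1, and the isotype control was a human IgG1. Rituximab (R), another antibody to CD20, was given to 2 further U2932 libraries, and TMD8, a second DLBCL line of the same subtype, received the same 3 treatments. Every library was treated for 4 h at 20 µg/mL. The U2932 cells had been split and kept as separate cultures for a week before treatment, so the 2 libraries of a group are cultures of 1 line, and p-values measure the spread between such cultures only.

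CD20 spans the B-cell membrane, and antibodies to it can fix complement, engage Fc receptors on effector cells and, by crosslinking CD20 in lipid rafts, start signals through kinases and calcium in the B cell itself. OF and R bind different epitopes of CD20, and OF is known for strong complement activation. The serum in the culture medium had been heat-inactivated, a step that destroys complement.

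The 4 libraries held 16521068 and 17199579 counts with OF and 20244698 and 21191535 with isotype, and the R libraries 17226285 and 18841457. The B-cell marker genes were all present, with a summed level of 9848 to 10022 CPM (a gene's share of a library's counts, scaled to a fixed total) with OF and 6204 to 6974 with isotype, led by IGHM, MS4A1 and CD74. Of 10 T-cell and NK markers, CD3D, CD3G and NKG7 were at 0 in all 4 libraries and the sum was at most 1.27 CPM. The myeloid sum was at most 1.00 CPM. The stromal and epithelial sum of 31.9 to 41.3 CPM came almost wholly from EPCAM. Levels are shares of a library, so fewer cells with a transcript and less RNA per cell cannot be told apart, and the counts carry no measure of total RNA per cell.

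A quasi-likelihood model in edgeR tested 14635 of 58884 genes. Genes were called at a Benjamini-Hochberg adjusted p under 0.10 with a change of at least 1.5-fold (0.585 on the log2 scale). OF left 863 genes higher (5.9% of those tested) and 762 lower (5.21%), or 11.1% called in all. The median log2 fold change was 0.78 among the higher and −0.81 among the lower genes, and 216 and 241 genes, respectively, were changed at least 2-fold. In 1620 of the 1625 called genes both OF libraries lay beyond both isotype libraries, which was true of 64.4% of all tested genes. Scaling by total counts alone gave 571 higher and 1055 lower genes, so the share of calls that were higher went from 53.1% to 35.1%, with 1332 calls kept in the same direction. DESeq2 called 600 and 461 genes, and a fit of all 12 libraries 447 and 457. The plot of level against fold change shows the calls at every level of expression.

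**Figure D1:**
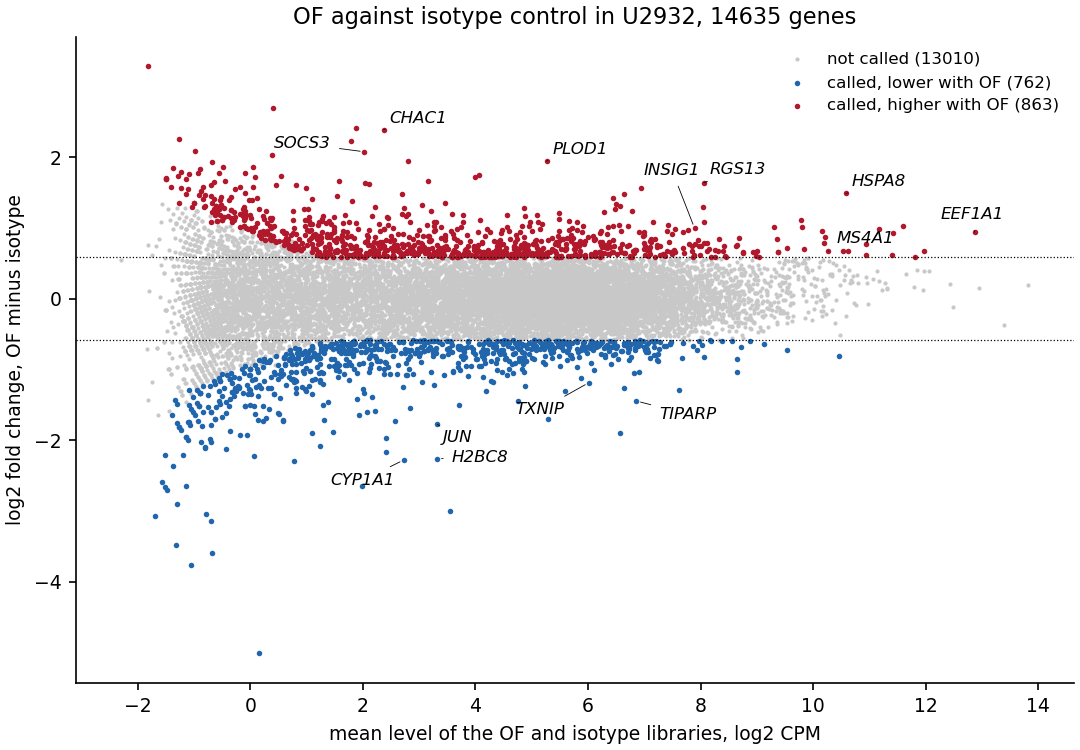
Each point is 1 of 14635 tested genes, by the mean level of the 4 libraries (log2 CPM) and the log2 fold change of OF over isotype, with dotted lines at 1.5-fold. The 863 higher genes (red) include abundant transcripts such as HSPA8 and EEF1A1, and the 762 lower genes (blue) include H2BC8, CYP1A1 and JUN.

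The libraries also differed by GC content. The median log2 fold change rose from −0.144 in the decile of genes with the lowest transcript GC content to 0.180 in the decile with the highest, a difference of 0.324. Between the 2 isotype libraries the same difference was 0.398, and between the 2 OF libraries 0.0388. A correction for GC content left 769 higher and 734 lower genes and kept 1219 of the 1625 calls. Of the 117 called genes named by a rule given below, 30 lost the call with this correction, as stated with the gene lists. The other lost calls are not named. How much of each change came from GC content was not tested.

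**Figure D2:**
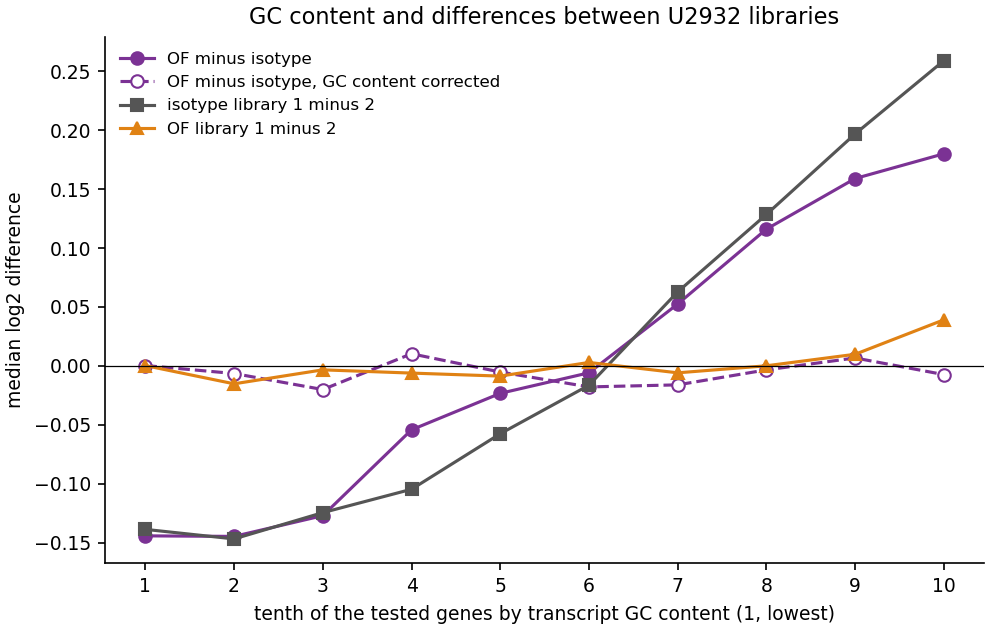
Median log2 difference in each decile of the tested genes by transcript GC content, for OF minus isotype before and after the correction and for the 2 libraries within each group. The isotype libraries differed from each other with a slope like that of OF against isotype, whereas the OF libraries stayed within 0.04 of 0 in every decile.

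The genes most clearly higher with OF were a cytosolic chaperone group together with genes of translation, collagen modification and G-protein signalling. HSPA8, the constitutive Hsp70 (chr11:123057489-123063230, GRCh38), had 2251 and 2287 CPM with OF against 792 and 824 with isotype. Its log2 fold change was 1.49 (SE 0.074, adjusted p = 2.31e-13). RGS13, an inhibitor of G-protein signalling found in germinal center B cells and mast cells, had 396 and 414 CPM against 122 and 137 (log2 fold change 1.64, SE 0.090, adjusted p = 1.26e-12). PLOD1, a lysyl hydroxylase of procollagen, went from 16.5 and 15.1 to 61.2 and 60.9 CPM. EEF1A1, the elongation factor that brings aminoacyl-tRNA to the ribosome, was among the most abundant transcripts of the cell and rose from 4977 and 5285 to 9863 and 9874 CPM, although reads shared with its processed pseudogenes could be assigned to either. CCNI, an atypical cyclin, rose by 1.24. Among genes of at least 10 CPM with OF, the largest increases were those of DGKG, a diacylglycerol kinase (log2 fold change 1.96), PLOD1 (1.95), SPR, which makes tetrahydrobiopterin (1.75), DDIT4 (1.72) and B4GALNT1, a ganglioside synthase (1.66). In each of these 9 genes both OF libraries exceeded both isotype libraries. Such separation was part of the rule that picked the most clearly changed genes. It held in 1620 of the 1625 called genes, so it adds no support.

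The most clearly lower genes held histones, targets of the aryl hydrocarbon receptor and lymphoid signalling genes. H2AC6, a histone H2A gene (chr6:26124145-26139116), fell from 149 and 150 CPM to 39.7 and 40.5 (log2 fold change −1.90, SE 0.095, adjusted p = 2.31e-13). TIPARP, a mono-ADP-ribosyltransferase that feeds back on the aryl hydrocarbon receptor, fell from 158 and 182 to 63.1 and 61.9 CPM. RHOH, a GTPase of hematopoietic cells, had a log2 fold change of −1.29 and LAX1, a membrane adaptor that restrains antigen receptor signalling, had −1.26. DHRS2, a mitochondrial reductase, had −1.69 and the chromatin gene ATAD2B fell from 64.6 and 71.7 to 27.8 and 27.7 CPM. Large decreases among genes of at least 10 CPM with isotype included those of CYP1A1 (−2.28), H2BC8 (−2.26), H2AC6 and JUN (−1.78). None of these had an OF library within the range of the isotype libraries, which again adds no support, since nearly all called genes were separated in this way.

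**Figure D3:**
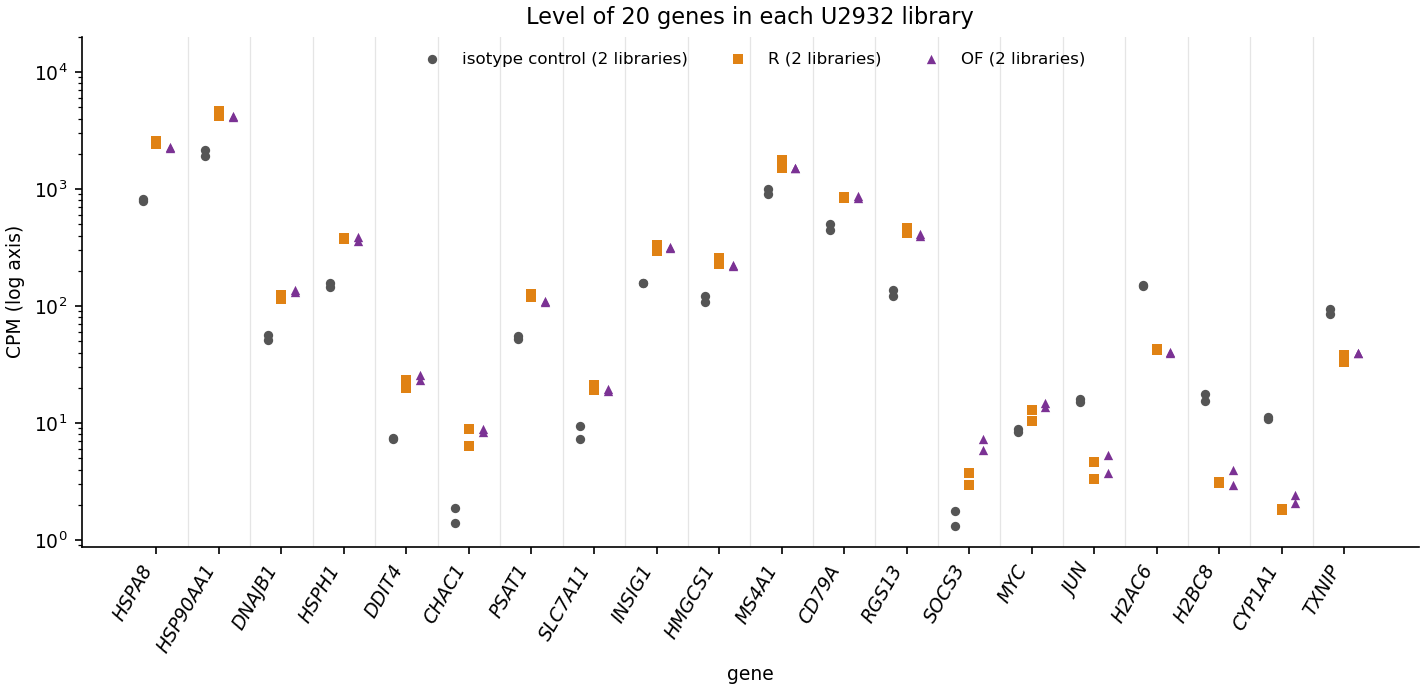
Level (CPM, log axis) of 20 genes in each U2932 library, with 2 points for each antibody. HSPA8 reached 2251 and 2287 CPM with OF against 792 and 824 with isotype. The 20 genes were picked from those called for OF against isotype, so their OF and isotype libraries were apart by choice. Both R libraries were on the same side of the same isotype libraries, which is no independent result.

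Many cytosolic chaperone genes were among the calls. Of 6 tested Hsp70 and Hsp110 genes 2 rose, of 12 genes for Hsp90 and its cochaperones 6 rose, and of 12 Hsp40 and nucleotide exchange factors 5 rose. None was called lower, although without the fold limit 1, 1 and 2 members were lower at an adjusted p under 0.10, and with the GC content correction 1 gene of the Hsp40 list was called lower. Over all tested genes 5.9% were called higher and 5.21% lower, and without the fold limit 18.7% were higher and 17.8% lower, shares that apply to every list below. The lists' median log2 fold changes were 0.32, 0.50 and 0.28, beside 0.0063 over all tested genes. Hsp70 and Hsp90 fold newly made and damaged proteins with ATP, Hsp40 proteins such as DNAJB1 hand clients to Hsp70, and HSPH1 and the BAG proteins exchange its nucleotide. The 2 cytosolic Hsp90 genes were high from the start. HSP90AA1 rose from 1913 and 2153 to 4201 and 4087 CPM (log2 fold change 1.03, SE 0.077, adjusted p = 3.54e-10) and HSP90AB1 from 1734 and 2040 to 3636 and 3581 (0.94, SE 0.077, adjusted p = 1.96e-09). HSPH1 went from 146 and 159 to 391 and 361 CPM and DNAJB1 from 56.8 and 51.7 to 136 and 133, with log2 fold changes of 1.30 and 1.31. The cochaperone STIP1, which bridges Hsp70 and Hsp90, rose by 0.75, DNAJA4 by 1.10, DNAJA1 by 0.67, BAG1 by 0.89 and BAG3 by 0.89, the last from a low level of at most 4.42 CPM. HSPA4L had a log2 fold change of 0.43 (adjusted p = 0.00251), under the fold limit. HSP90B1, the endoplasmic reticulum (ER) form of Hsp90, was named after its values were seen, and had 1224 and 1214 CPM with OF and 1253 and 1480 with isotype.

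None of 5 tested small heat shock and heat shock factor genes and none of 13 chaperonin and mitochondrial chaperone genes was called, and without the fold limit 1 and 5 genes had an adjusted p under 0.10 in the higher direction. HSF1, the transcription factor that drives heat shock genes, had 75.9 and 74.2 CPM with OF and 56.3 and 45 with isotype (log2 fold change 0.57, adjusted p = 0.000224). HSPD1 and HSPE1, the mitochondrial chaperonin pair, had log2 fold changes of 0.46 and 0.58. HSBP1 (0.21) and HSF2 (−0.23) had adjusted p-values of 0.101 and 0.204, and CCT3, of the cytosolic chaperonin, had 0.34. The median of the chaperonin list was 0.072, and −0.0085 when libraries were scaled by total counts, a scaling that also turned the medians of the ER chaperones (0.069 to −0.011), complement regulators (0.056 to −0.023), B-cell transcription factors (0.062 to −0.018) and calcium genes (0.018 to −0.060). The stress-inducible Hsp70 genes HSPA1A and HSPA1B are near-identical copies and had 0 to 2 counts in each of the 4 libraries, so they could not be tested.

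The promoters of 3 induced chaperones are shown for their heat shock elements, the sites that HSF1 binds. RefSeq promoter sequences (GRCh38) were read for the 250 bases before each listed start, 5′ to 3′ on the gene's strand. Capitals mark matches to the element, searched on both strands as the letters GAA, TTC and GAA with 2 free bases between each.
HSPA8 (chr11:123062137-123062386, minus strand): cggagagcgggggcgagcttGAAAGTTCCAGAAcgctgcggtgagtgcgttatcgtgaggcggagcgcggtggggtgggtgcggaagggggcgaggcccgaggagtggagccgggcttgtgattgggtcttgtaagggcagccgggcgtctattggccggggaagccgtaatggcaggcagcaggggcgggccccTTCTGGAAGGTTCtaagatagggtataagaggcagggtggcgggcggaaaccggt
HSP90AA1 (chr14:102087045-102087294, minus strand, 1 of 2 listed starts): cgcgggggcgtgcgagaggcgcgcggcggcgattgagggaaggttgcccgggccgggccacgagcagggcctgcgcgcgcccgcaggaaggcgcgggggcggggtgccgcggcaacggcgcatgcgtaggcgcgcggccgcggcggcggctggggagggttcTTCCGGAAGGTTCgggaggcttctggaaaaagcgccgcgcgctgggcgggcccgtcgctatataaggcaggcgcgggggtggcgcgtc
HSP90AB1 (chr6:44247693-44247942, plus strand, 1 of 3 listed starts): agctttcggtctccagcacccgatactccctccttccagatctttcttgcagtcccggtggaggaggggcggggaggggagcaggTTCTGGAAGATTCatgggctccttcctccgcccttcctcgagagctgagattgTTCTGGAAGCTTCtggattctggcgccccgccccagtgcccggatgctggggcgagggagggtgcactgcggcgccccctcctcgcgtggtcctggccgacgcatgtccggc
HSPA8 and HSP90AB1 each held 2 matches and HSP90AA1 held 1. For HSP90AA1 and HSP90AB1 the start shown was chosen as the first listed one with a match. Of the 12 called genes of the 3 chaperone lists that had a RefSeq promoter, 4 held the element at a listed start, namely these 3 and CHORDC1, against 152 of 27305 genes (0.557%) over the whole promoter table. Of all 26 tested genes of those lists with a promoter 6 held it, HSPA6 and DNAJB6 being the uncalled ones. A match describes letters only, and the promoters without one may hold other forms of the element.

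Few genes of the ER stress response passed. Of 21 ER chaperones and folding enzymes 1 rose, SDF2L1 (log2 fold change 0.63), and 1 fell, DNAJB9 (−0.59), both cofactors of the ER Hsp70. HSPA5, that ER Hsp70 itself and the usual marker of the unfolded protein response, had 1133 and 1099 CPM with OF and 950 and 1014 with isotype (log2 fold change 0.18, SE 0.076, adjusted p = 0.0675). HERPUD1, of ER-associated degradation, had 0.30. Of 9 genes for the sensors and factors of the response 2 fell, EIF2AK3 (PERK, −0.68) and PPP1R15A, which recruits the phosphatase that restores translation (−0.60). XBP1 (−0.28), ATF6 (−0.50) and DDIT3 (−0.18) did not pass both limits. With the GC content correction neither SDF2L1 nor DNAJB9 was called. The call of SDF2L1 was lost without OF library 1 (log2 fold change 0.55), and that of DNAJB9 without OF library 1 (−0.56) and without isotype library 2.

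Genes linked to ATF4 were often called higher, and ATF4 mRNA was not. ATF4 is a transcription factor of the integrated stress response whose protein is controlled mainly by translation, and its targets supply amino acids and curb signalling by mTORC1. Of 18 tested genes 11 rose and none fell, with a median log2 fold change of 0.61, and 6 rose with the GC content correction, 7 with scaling by total counts and 7 without isotype library 2. CHAC1, which degrades glutathione, had 8.90 and 8.45 CPM with OF against 1.41 and 1.88 with isotype (log2 fold change 2.39, SE 0.22, adjusted p = 1.24e-08). DDIT4, an inhibitor of mTORC1, had 23.3 and 25.6 CPM against 7.47 and 7.33. PSAT1, of serine synthesis, had 110 and 109 against 52.5 and 55.6 (1.02, SE 0.093, adjusted p = 1.05e-08). The list also held VLDLR, a lipoprotein receptor, at a low level of 2.27 and 2.30 CPM against 0.188 and 0.504, and ASNS, asparagine synthetase, at 1.84 and 1.65 against 1.13 and 1.88. Those last 2 genes were named after their values were seen. ATF4 itself had 468 and 447 CPM with OF and 596 and 610 with isotype (−0.40, adjusted p = 0.000498).

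Amino acid carriers had positive changes. Of 9 tested transporters 4 rose, and all 9 had an adjusted p under 0.10 with a positive change. SLC7A11, the cystine importer that supplies glutathione synthesis, went from 7.28 and 9.49 to 19.4 and 18.7 CPM (log2 fold change 1.18, SE 0.14, adjusted p = 5.93e-07). SLC6A9, a glycine carrier, went from 1.46 and 0.962 to 6.51 and 4.90 CPM. SLC7A5, the large neutral amino acid carrier, rose by 0.76 and SLC38A2, a glutamine carrier, by 0.74. None of 20 cytosolic aminoacyl-tRNA synthetase genes was called, although 9 had a positive change with an adjusted p under 0.10 and the leading ones, YARS1 (0.58), NARS1 (0.50) and AARS1 (0.48), came near the fold limit.
The promoter of CHAC1 is shown because that gene had the largest change of the list at more than 5 CPM. Capitals mark the letters of the ATF4 composite element, searched as TGATGNAA on both strands, in the 250 bases before the start.
CHAC1 (chr15:40953221-40953470, plus strand): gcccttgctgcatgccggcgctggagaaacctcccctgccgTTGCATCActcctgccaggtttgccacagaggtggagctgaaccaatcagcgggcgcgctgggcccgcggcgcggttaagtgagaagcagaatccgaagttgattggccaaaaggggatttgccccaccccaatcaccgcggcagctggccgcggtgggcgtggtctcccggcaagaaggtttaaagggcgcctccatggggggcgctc
CHAC1 was the 1 of 12 called genes of both lists with a RefSeq promoter to hold the element, against 1061 of 27305 genes (3.89%). Of all 23 listed and tested genes with a promoter 4 held it, the uncalled ones being ASNS, ATF3 and SLC1A5.

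Sterol synthesis genes had positive changes throughout the list. SREBP transcription factors induce these genes when ER sterol is low, together with INSIG1, which holds SREBP back in the ER. Of 22 tested genes 12 rose and none fell, 21 had an adjusted p under 0.10, and the median log2 fold change was 0.61. INSIG1 doubled, from 159 and 158 to 316 and 318 CPM (log2 fold change 1.00, SE 0.088, adjusted p = 5.65e-09). HMGCS1, a synthase early in the path, went from 108 and 123 to 222 and 226 CPM (0.96). The element TCACNCCAC that SREBP binds was found in none of the 9 called genes with a listed promoter, in 1 of all 17 tested ones (SREBF2, not called) and in 1.09% of all genes. At that share a count of none is the usual result for any 9 genes. Only the bases just before each start were searched, so the search cannot tell whether these genes hold the element elsewhere.

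Of 12 tested genes of fatty acid synthesis and of the liver X receptors 4 rose, with a median log2 fold change of 0.19. SCD, a desaturase, had 417 and 415 CPM with OF against 250 and 269 with isotype (0.68). FADS2, another desaturase, rose by 0.71, FASN, fatty acid synthase, by 0.71 and the receptor NR1H2 by 0.61. Only SCD stayed called with the GC content correction, and without isotype library 2 the log2 fold changes of FADS2, FASN and NR1H2 were 0.58, 0.48 and 0.53, under the limit. A fit of all 12 libraries called 2 of the 12.

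**Figure D4:**
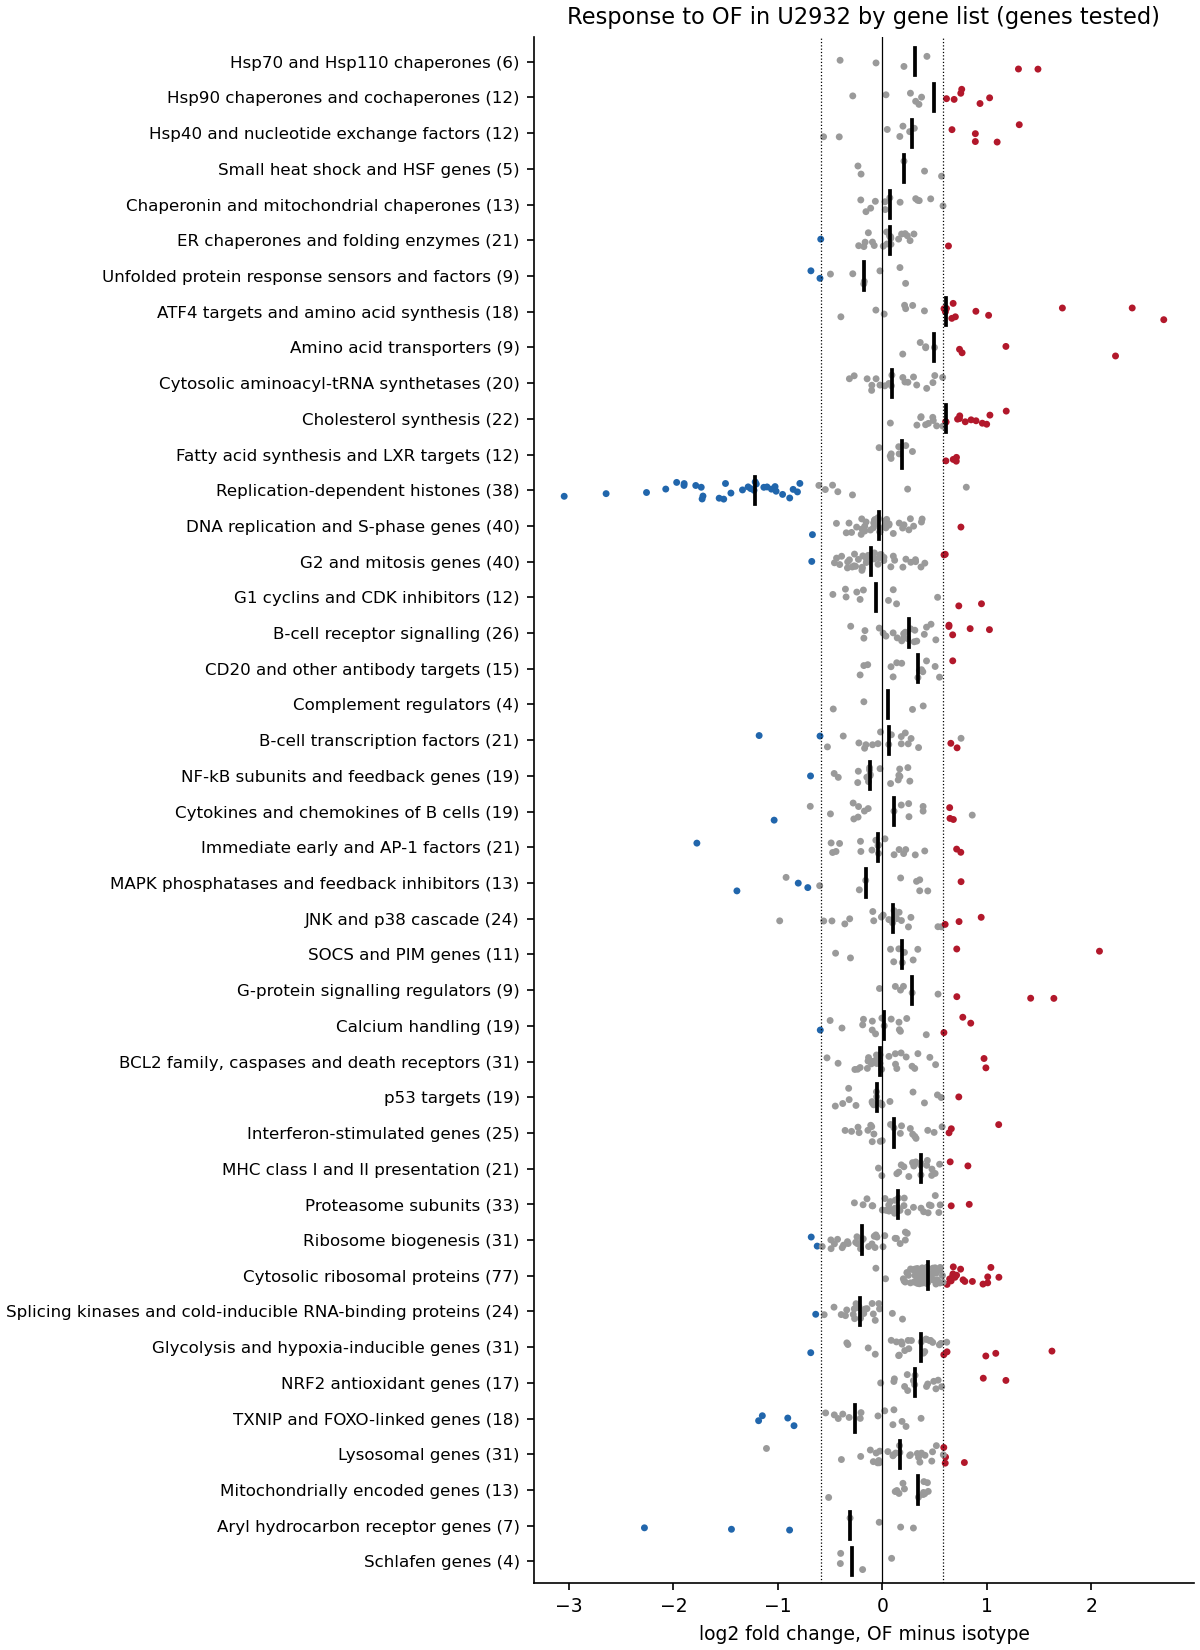
Log2 fold change of OF over isotype for each tested gene of 43 lists (number tested in parentheses), with red and blue points for genes called higher and lower, grey for those not called, a black bar at each list's median and dotted lines at 1.5-fold. Histones lie to the left with a median of −1.22, and sterol, ATF4-linked and Hsp90 genes lie to the right with medians of 0.61, 0.61 and 0.50.

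Most tested replication-dependent histone genes fell. These genes supply histones in S phase, and their mRNAs end in a stem-loop in place of a poly(A) tail, so a library captures them only in part. Of 38 tested genes 31 fell and none rose, with a median log2 fold change of −1.22. H2AC6 is given above. H2BC8 had 2.95 and 3.96 CPM with OF against 15.4 and 17.8 with isotype (log2 fold change −2.26, SE 0.17, adjusted p = 6.31e-10), and H3C10 had 14 and 14.9 against 39.4 and 39.5 (−1.45, SE 0.12, adjusted p = 3.78e-09). DESeq2 called 16 members lower, and leaving out 1 library gave 26 to 32. Several histone genes have near-identical coding sequences, so counts of single members are uncertain.
The promoter of H2BC8 is shown for the octamer ATTTGCAT, which the factor OCT1 binds in H2B genes. Capitals mark the match in the 250 bases before the start.
H2BC8 (chr6:26216689-26216938, minus strand): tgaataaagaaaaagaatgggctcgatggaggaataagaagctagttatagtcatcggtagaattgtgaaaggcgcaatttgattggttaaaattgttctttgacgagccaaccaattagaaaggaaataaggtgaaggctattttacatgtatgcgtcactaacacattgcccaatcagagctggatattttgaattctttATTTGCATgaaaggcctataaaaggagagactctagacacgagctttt
The octamer, searched on both strands, was found in 17 of 35 tested histone genes with a RefSeq promoter, and in 12 of the 29 of them that fell, against 554 of 27305 genes (2.03%). All of the 17 were H2A or H2B genes.

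Few other genes of the cell cycle were called. Of 40 genes of DNA replication 1 rose, TYMS, thymidylate synthase (193 and 192 to 327 and 321 CPM, log2 fold change 0.75), and 1 fell, PRIM1, a primase subunit (−0.67). CDC45 of the replicative helicase had −0.44. Of 40 genes of G2 and mitosis 2 rose, BIRC5 (survivin, 0.59) and ANLN (0.60), and 1 fell, the kinetochore motor CENPE (−0.68), with list medians of −0.031 and −0.11. The proliferation marker MKI67 had 293 and 334 CPM with OF and 299 and 361 with isotype, groups that overlapped. Of 12 G1 cyclins and CDK inhibitors 2 rose. CDKN2C (p18), an inhibitor of CDK4 and CDK6, had 170 and 165 CPM against 85.7 and 87.6 (0.95, SE 0.088, adjusted p = 1.43e-08), and CDKN1A (p21) had 101 and 107 against 65.7 and 59.8 (0.73, SE 0.094, adjusted p = 1.83e-06). CDKN1B (p27) had −0.47 (adjusted p = 0.000336). With 1 library left out the calls of BIRC5 and ANLN were each lost in 2 of 4 cases, and those of PRIM1 and CENPE without isotype library 2, where CENPE had −0.35. PRIM1, BIRC5 and CENPE were not called with the GC content correction, and with total counts none of the 40 genes of G2 and mitosis rose.

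Of 77 tested cytosolic ribosomal protein genes 18 rose and none fell, and 73 had an adjusted p under 0.10, with a median log2 fold change of 0.43. RPS18 had 1162 and 1250 CPM with OF against 577 and 536 with isotype (1.12, SE 0.082) and RPL11 had 829 and 864 against 418 and 423 (1.01, SE 0.082). All ribosomal protein genes took 6.69% and 6.83% of the counts with OF and 5.24% and 4.90% with isotype. Many of them have processed pseudogenes that share reads. A fit of all 12 libraries called 5 of the 77. Of 31 ribosome biogenesis genes 2 fell, the helicase DDX21 (−0.68) and UTP20 (−0.62), and LYAR had −0.58. The list's median was −0.20, with 14 genes negative at an adjusted p under 0.10, and none was called with the GC content correction. Leaving out isotype library 2 gave 0 lower genes (DDX21 −0.57, UTP20 −0.44) and leaving out isotype library 1 gave 4, and the call of UTP20 was also lost without OF library 1. Of 24 splicing kinases and cold-inducible RNA-binding protein genes 1 fell, SRSF7 (687 and 683 to 436 and 444 CPM, −0.64), with a median of −0.22, and HNRNPDL (−0.56) and SRSF6 (−0.46) were under the fold limit. SRSF7 was not called with the GC content correction or in the fit of all 12 libraries. None of 13 mitochondrially encoded genes was called, and their median was 0.35. All genes with an MT- symbol took 6.65% and 6.23% of the counts with OF and 6.13% and 6.37% with isotype, groups that overlapped. MT-CYB, MT-ND2 and MT-ND1, of the respiratory chain, had 0.39, 0.41 and 0.39. Without the fold limit 14 of 33 proteasome subunits (42.4%) were higher and 1 lower, against 18.7% and 17.8% of all genes. With the limit 2 rose (6.06%, near the share of all genes), PSMA1 (0.83) and PSMA6 (0.66), and the abundant PSMD8, PSMD7 and PSMB3 had 0.55, 0.54 and 0.51. The call of PSMA6, at no more than 3.07 CPM, was lost without each of the 4 libraries in turn, and neither was called in the fit of all 12 libraries.

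The RNA for CD20 itself rose. MS4A1 had 1516 and 1519 CPM with OF against 899 and 1003 with isotype (log2 fold change 0.67, SE 0.083, adjusted p = 1.04e-06), and without isotype library 1 the change was 0.58, just under the fold limit. MS4A1 was the 1 called gene of 15 targets of therapeutic antibodies, whose median was 0.34, with CD74 at 0.51 and CD22 at 0.42. None of 4 tested complement regulators was called. CD46 had 0.39, CD59 had 0.29 and CD55 had −0.47.

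Genes of the B-cell receptor path rose in part. The receptor signals through CD79A and CD79B, and kinases such as SYK and BTK to NF-kB. Of 26 tested genes 5 rose and none fell, with a median log2 fold change of 0.26. CD79A went from 500 and 447 to 864 and 832 CPM (0.84, SE 0.081, adjusted p = 2.3e-08). The tetraspanin CD81 (0.64), the inhibitory receptor FCRL5 (0.64) and the phosphatase PTPN6 (0.67) also rose. With the GC content correction 2 of the 26 rose, CD79A among them and CD81, FCRL5 and PTPN6 not, and with total counts 3 rose. The immunoglobulin heavy chain gene IGHM rose from 3442 and 2738 to 4999 and 4845 CPM (0.67), and its call was lost with that correction and without isotype library 2 (0.52), as was that of CD81 (0.50). The call of FCRL5 was lost without OF library 2 and without isotype library 1 (0.50).

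B-cell transcription factors moved both ways. Of 21 tested genes 2 rose, POU2F2 (OCT2; 346 and 321 to 529 and 522 CPM, log2 fold change 0.66) and BATF (0.72), and 2 genes of the list fell. One of these was IRF8, which went from 422 and 385 to 269 and 264 CPM (−0.60, SE 0.085, adjusted p = 8.05e-06). BCL6 (−0.04), IRF4 (0.06, and −0.02 with scaling by total counts) and PRDM1 (0.28), which mark germinal center and plasma cell programs, had adjusted p-values of 0.771, 0.618 and 0.052. The call of IRF8 was lost without isotype library 1 (−0.54), and POU2F2 and BATF were not called with the GC content correction. Of 21 genes of antigen presentation 2 rose (9.52%), the master regulators CIITA (104 and 94.9 to 176 and 175 CPM, 0.82) of class II and NLRC5 (0.65) of class I. Without the fold limit 15 of the 21 (71.4%) had an adjusted p under 0.10 with a positive change, against 18.7% of all genes. Neither CIITA nor NLRC5 was called in the fit of all 12 libraries, and the latter was under the fold limit without OF library 2 (0.57) and with the GC content correction.

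RGS proteins speed the GTPase activity of G-alpha subunits and damp chemokine receptors, and of 9 tested genes 3 rose. Besides RGS13, RGS1 went from 44.5 and 50.7 to 124 and 131 CPM (log2 fold change 1.42, SE 0.11, adjusted p = 7.97e-10) and RGS2 from 85.4 and 111 to 159 and 164 (0.71), the last under the limit without isotype library 1 (0.52). SOCS proteins inhibit cytokine receptors, and of 11 genes of the SOCS and PIM families 2 rose. SOCS3 went from 1.32 and 1.79 to 5.83 and 7.33 CPM (2.08, SE 0.24, adjusted p = 4.17e-07) and SOCS1 by 0.71, while SOCS4 had −0.45. SOCS1 was not called with the GC content correction. Of 19 calcium genes 3 rose and 1 fell. Among them the calcium store sensor STIM1 rose by 0.59 and the channel ORAI3 by 0.85, and the calcium pump ATP2B1 fell by 0.59. The calls of STIM1 and ORAI3 were each lost in 2 of 4 fits that left out 1 library, and that of ATP2B1 without isotype library 2 (−0.44). STIM1 and ATP2B1 were not called with the GC content correction, and 1 of the 19 rose in the fit of all 12 libraries.

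Of 21 immediate early genes 2 rose and 1 fell, or 2 fell with the GC content correction. JUN went from 16 and 15 to 5.34 and 3.72 CPM (log2 fold change −1.78, SE 0.18, adjusted p = 4.54e-08), while JUND had −0.49, FOS had 4.17 and 5.14 CPM against 3.95 and 4.67, and EGR1 had 0.41 (adjusted p = 0.0161). MYC had 13.6 and 14.7 CPM with OF against 8.92 and 8.39 with isotype (0.71, SE 0.15, adjusted p = 0.000546), and MAFF, at 3.93 CPM or less, had 0.75, or 0.40 and no call without isotype library 2. Of 13 MAP kinase phosphatases and feedback inhibitors 1 rose, DUSP2 (0.75), and 3 fell, DUSP16 (−1.39), DUSP10 (−0.71) and DUSP1 (−0.80). DUSP16 and DUSP10 dephosphorylate JNK and p38, and DUSP16 had 2.39 and 2.54 CPM against 5.97 and 7.01. None of the 13 rose and 5 fell with the GC content correction. Of 24 genes of the JNK and p38 cascade 3 rose, the p38 kinases' activators MAP2K3 (0.60) and MAP2K6 (0.73) and the downstream kinase RPS6KA4 (MSK2; 12.5 and 9.90 to 21.6 and 21.6 CPM, 0.95). GADD45B had 0.53. MAP2K3 was under the fold limit without OF library 1 and without isotype library 2 (0.54) and not called with the GC content correction, and without isotype library 1 the cascade had 5 higher and 2 lower genes. DUSP1 was under the limit without OF library 1 (−0.58).

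Of 19 NF-kB subunits and feedback genes none rose and 1 fell, NFKB1 (159 and 155 to 94.8 and 100 CPM, log2 fold change −0.69, SE 0.091, adjusted p = 2.86e-06), and 2 fell with the GC content correction. NFKBIA, the inhibitor that NF-kB induces, had 31.2 and 28.2 CPM against 24.6 and 25.5 (0.24, adjusted p = 0.0922), NFKBID had −0.42 and REL had −0.46. Of 19 cytokines and chemokines of B cells CCL22 (0.65), CCL4 (0.64) and IL10 (7.67 and 7.56 against 4.09 and 5.41 CPM, 0.68) rose and the interleukin-2 receptor chain IL2RA fell (−1.04). Those 3 increases each lost the call without 1 isotype library, CCL22 without the second (0.50) and CCL4 (0.53) and IL10 (0.48) without the first. With the GC content correction CCL22 was not called and 2 genes of the list fell, and none rose in the fit of all 12 libraries.

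Of 31 genes for the BCL2 family, caspases and death receptors 2 rose (6.45%, near the share of all genes). BID, which links death receptors to mitochondria, doubled from 33.9 and 34.6 to 67.2 and 67.4 CPM (log2 fold change 0.97, SE 0.10, adjusted p = 7.29e-08), and TNFRSF1A had 7.55 and 6.32 against 3.99 and 2.98 (0.99, SE 0.20). The survival genes BCL2 (1102 and 1119 against 1193 and 1195 CPM, −0.10) and MCL1 (2661 and 2688 against 2422 and 2437, 0.14) had adjusted p-values of 0.312 and 0.146, and BIRC2 had −0.42. Of 19 p53 targets 1 rose, CDKN1A, or 2 with the GC content correction, and ZMAT3 (0.53) and PPM1D (−0.45) were under the fold limit with opposite signs.

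In metabolism a minority of the listed genes passed. Of 31 glycolysis and hypoxia-inducible genes 5 rose (16.1%) and 1 fell. PKM, pyruvate kinase, went from 1672 and 1423 to 3027 and 3125 CPM (log2 fold change 0.99, SE 0.078, adjusted p = 9.28e-10), ENO1, enolase, from 1521 and 1560 to 2367 and 2368 (0.62) and GAPDH from 2861 and 2878 to 4275 and 4358 (0.59). The angiogenic factor VEGFA (1.09) and PFKFB4 (1.62), named after their values were seen, were the other 2. MXI1, a MYC antagonist, fell by 0.69. With the GC content correction 3 rose, ENO1 and GAPDH not among them, and GAPDH was under the fold limit without OF library 2 (0.57) and without isotype library 1, as MXI1 was without OF library 1 (−0.58). Of 18 genes linked to TXNIP and FOXO factors 4 fell (22.2%). TXNIP, an arrestin-like inhibitor of glucose uptake and thioredoxin, went from 84.7 and 95.0 to 39.7 and 39.4 CPM (−1.18, SE 0.10, adjusted p = 4.75e-09), and its relatives ARRDC3 (−0.91) and ARRDC4 (−1.15) fell with FOXO3 (−0.85).

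Of 7 genes of the aryl hydrocarbon receptor, a sensor of ring-shaped ligands, 3 fell and none rose. CYP1A1, its classical target, went from 11.2 and 10.8 to 2.09 and 2.42 CPM (log2 fold change −2.28, SE 0.20, adjusted p = 4.36e-09), and CYP1B1 fell by 0.89, beside TIPARP. The receptor's core letters TNGCGTG were found in none of the 2 called genes with a listed promoter and in 5.54% of all genes. At that share a count of none is the usual result for any 2 genes. Only the bases just before each start were searched, so the search cannot tell whether these genes hold the letters elsewhere. Of 17 antioxidant genes driven by NRF2 2 rose (11.8%), SLC7A11 and the heme oxygenase HMOX1 (0.97), and PRDX1 had 0.53. Without the fold limit 13 of the 17 (76.5%) were higher and none lower, against 18.7% of all genes higher. Of 31 lysosomal and autophagy genes 4 rose, the protease CTSZ (0.79), PSAP (0.60), CTSA (0.61) and GABARAPL1 (0.59), and MAP1LC3B had 0.58. Of these CTSZ alone kept its call without each library in turn, and 2 of the 31 rose with the GC content correction, PSAP and CTSA not among them, and 1 with total counts.

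Of 25 interferon-stimulated genes 3 rose (12%), BST2 (log2 fold change 0.64), IFI35 (0.66) and IFIT2 (1.11, from 1.17 and 0.962 to 2.33 and 2.30 CPM), and MX2 had 0.57. Without the fold limit 10 of the 25 (40%) were higher and none lower. With the GC content correction 1 rose, BST2 and IFI35 being lost, and with total counts 1 rose. The call of BST2 was lost without isotype library 1 (0.58) and that of IFI35 without OF library 1 and without isotype library 2 (0.54). None of 4 Schlafen genes was called. SLFN5 had −0.40, SLFN13 had −0.19 and SLFN12 had −0.40, the last with overlapping groups.

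By class of RNA, the calls covered 10.5% of 11561 protein-coding genes, 12.8% of 1025 antisense genes, 15.2% of 677 long intergenic RNAs and 11.7% of 325 processed pseudogenes. Pseudogenes were mostly higher (30, with 8 lower) and long intergenic RNAs mostly lower (63, with 40 higher). Zinc-finger transcription factor genes, a group chosen by symbol after the values were seen, had 4 higher and 90 lower genes of 494, with a median log2 fold change of −0.24, and 4 and 69 with the GC content correction. Whether the counting used the strand of the reads is not given in the sources used here, and exons of DNAJB1 overlap TECR on the other strand, as do those of HSP90AA1 and WDR20, and TYMS and ENOSF1, so reads of these pairs cannot be told apart.

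OF was compared directly with R to ask where the antibodies to CD20 differed in U2932. At an adjusted p under 0.10 and at least 1.5-fold, 1 of 14635 genes (0.00683%) was called. DTX2, a ubiquitin ligase of the Notch path, had 13.3 and 13.1 CPM with OF against 7.61 and 6.63 with R (log2 difference 0.89, SE 0.16, adjusted p = 0.0875), and 15.5 and 12.2 with isotype. DTX2 had a log2 fold change of −0.07 with OF against isotype and −0.96 with R against isotype. This call was absent with total counts, DESeq2, all 12 libraries, the replicate block with GC content correction and without OF library 1, each of which called no gene. Replicates 1 and 2 were separate cultures of the line that were each given the antibodies, and with the replicate number as a block 3 genes (0.0205%) were called, DTX2 (adjusted p = 0.00162), SOCS3 (0.97, adjusted p = 0.0919) and the signal recognition particle RNA RN7SL2 (0.80, adjusted p = 6.52e-07). The last had 219 and 148 CPM with OF and 139 and 75.1 with R, and was named after its values were seen. Without the block, no further gene was called at the limit of 0.30, and 747 genes had an unadjusted p under 0.05. Without the block, leaving out 1 library gave 0 (without OF library 1) to 5 (without OF library 2), with 4 and 2 without R library 1 and 2. SOCS3 had 2.95 and 3.76 CPM with R, below 5.83 and 7.33 with OF (difference 0.97, SE 0.22, adjusted p = 0.77 without the block). A miss of the limit does not show that the antibodies acted alike, and the median SE of this difference was 0.13.

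Both antibodies were read against the same isotype libraries, so their values are set side by side with no test of likeness. HSPA8 had a log2 fold change of 1.49 with OF and 1.63 with R, HSP90AA1 1.03 and 1.13, CHAC1 2.39 and 2.21, and PSAT1 1.02 and 1.19. INSIG1 had 1.00 and 0.99, MS4A1 0.67 and 0.77, and RGS13 1.64 and 1.78. On the lower side H2AC6 had −1.90 and −1.81, JUN −1.78 and −1.96, CYP1A1 −2.28 and −2.58, and TXNIP −1.18 and −1.34. Values further apart included those of SOCS3 (2.08 and 1.11), POU2F2 (0.66 and 0.38), FASN (0.71 and 0.41) and MYC (0.71 and 0.43). Of these SOCS3 alone passed the direct test, and only with the block. The genes set side by side are a selection. Of the 1625 genes called for OF against isotype, 152 had an OF minus R difference beyond 1.5-fold, whatever its p-value.

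The response to OF was also set against that of TMD8. There 116 of 14227 genes (0.815%) were called, 67 higher and 49 lower. The median SE was 0.25 in TMD8 and 0.12 in U2932, from separate fits without the replicate block, so the 2 values are not on a common footing. With the replicate number as a block TMD8 had 1387 calls (9.75%) and U2932 1675 (11.4%), so the lower count without it does not show a smaller response. Of the 116 genes 102 were tested in U2932, where 59 were called in the same direction and none in the opposite direction. The 59 were 50.9% of all TMD8 calls, beside 11.1% of all tested genes called either way in U2932. They were 3.63% of all U2932 calls, of which 1346 were tested in TMD8, beside 0.815% of all genes called there. With the block 423 genes were called alike, 30.5% of the TMD8 calls and 25.3% of the U2932 calls, and 11 in opposite directions. SPR had 1.75 in U2932 and 1.90 in TMD8, PLOD1 1.95 and 1.59, RGS13 1.64 and 2.39, and CDKN2C 0.95 and 1.11.

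Without the replicate block, the test of the difference between the lines called 17 of 16187 genes (0.105%). Of these, 9 had a more positive response in U2932 and 8 in TMD8. HSPA5 had a log2 fold change of 0.18 in U2932 and 1.54 in TMD8 (difference −1.35, SE 0.18, adjusted p = 0.027). SLC7A11 had 1.18 and −0.63 (difference 1.82, SE 0.23, adjusted p = 0.027). UGDH, which makes UDP-glucuronate, had −0.15 and 1.12, and the interferon-induced OAS2 had 0.27 and −1.01. TRPM4, a cation channel activated by calcium, had −2.90 and 0.60, but in U2932 it was at most 0.798 CPM. Among the other 12 genes were the interferon-stimulated IFIT2 (1.11 and −1.44) and SLFN5 (−0.40 and −1.89). This count was not stable. The replicate block gave 354 genes (2.19%), all 17 among them, the GC content correction 77, DESeq2 187 and no filter on low counts 171, while leaving out OF library 1, OF library 2 or isotype library 1 of U2932 gave 0 genes and leaving out isotype library 2 gave 2. Without single TMD8 libraries it was 10 (OF library 1), 16 (OF library 2), 54 (isotype library 1) and 179 (isotype library 2).

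**Figure D5:**
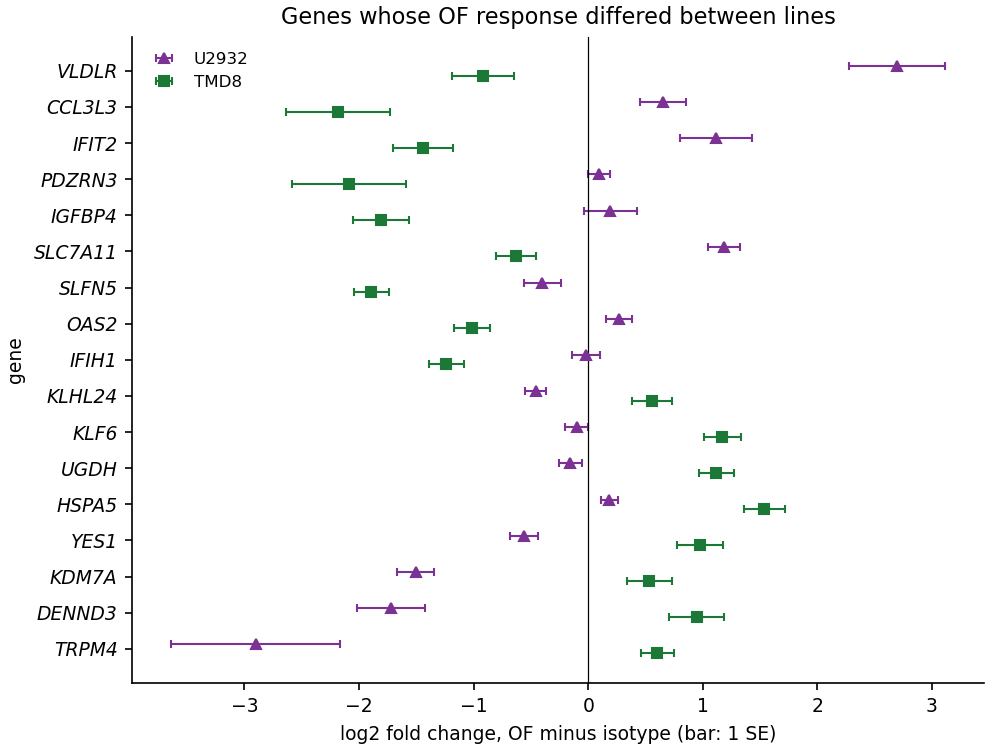
Log2 fold change of OF over isotype with its SE in U2932 (triangles) and TMD8 (squares) for the 17 genes whose response differed between the lines. Values and SEs came from a separate fit of each line. The 17 genes came from a fit of all 12 libraries. None of these fits used the replicate block. Genes positive in U2932 and negative in TMD8 include VLDLR, CCL3L3, IFIT2 and SLC7A11, and TRPM4, DENND3, KDM7A and YES1 are among those with the reverse. Genes in the plot that are not named in the text are called genes outside the naming rule.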

How the data were processed

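RNA-seq counts of 12 libraries were analysed, of which the 4 U2932 libraries given OF or isotype are the subject. Per the submitters' processing notes, reads were handled with Trim Galore 0.6.0, cutadapt, FastQC and STAR 2.7.0e on GRCh38 (hg38), and DESeq2 1.26.0 was used by the authors. The authors deposited raw counts per gene, with no normalization. The annotation release and the strand setting of the counting are not given in the sources used here. Total RNA had been purified with Trizol and made into libraries with a NEBNext Ultra II kit. All 12 columns were matched to a library by name, and 0 lines without a gene were found.

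Tests were run with edgeR 4.0.16 under R 4.3.3. The 6 U2932 libraries were filtered (filterByExpr, minimum count 10), scaled by TMM and fitted with 1 mean per antibody by quasi-likelihood, and 3 residual degrees of freedom remained. The Benjamini-Hochberg adjustment was made over all tested genes. Genes were called at an adjusted p under 0.10 and at least 1.5-fold. CPM are TMM-scaled, and log2 CPM used a prior count of 2. Each SE was derived from the test, as the absolute log2 fold change divided by the square root of the F statistic. SEs of different fits are thus not on a common footing. Interactions between antibody and line used all 12 libraries. At 16521068 to 21191535 counts a library, the median SE of the log2 fold change was 0.12. The variance between replicates was 2.30 (OF), 6.23 (R) and 9.75 (isotype) times that of counting error (chi-square per degree of freedom), so none was a repeat deposit. Gene names came from a table of Ensembl IDs and symbols, with 13366 of 14635 tested genes named, and positions, GC content and length from the GENCODE 29 annotation (GRCh38). GC content and length corrections removed a lowess trend (span 0.3) of each library. Promoters were those of RefSeq.

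Per the study's methods, each line was split into 2 separate cultures, its replicates, and each was given the antibodies. The replicate number can thus stand for a pair, but the main fits did not use it, and the block was an alternative. The differences between replicates 1 and 2 correlated at −0.001 (OF and isotype), −0.048 (OF and R) and 0.104 (R and isotype) in U2932 and at 0.687 (OF and isotype) in TMD8. Counts with the number as a block stand beside those it moved by more than 1.5 times.

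Alternatives were DESeq2 1.42.0, other scalings, filters, limits and library sets, the block, both corrections and leaving out each library. The steps were tested on simulated data. Genes were named by a rule: the 8 smallest adjusted p-values in each direction with libraries that did not overlap, the 5 largest changes in each direction at 10 CPM or more, the leading 3 members and any opposite call of each list, 20 genes fixed by name, and genes called between antibodies or leading between lines. Some genes that meet it are not reported here. The members, lists and rule were chosen with earlier results of these data known, so list counts and medians are descriptions. Figures were drawn with matplotlib in Python.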

Additional observations from a re-analysis of the deposited data

Results flagged for a closer look

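Flagged here are named genes whose response differed between groups by a test of the difference itself. Between the lines, the response to OF on the log2 scale, U2932 minus TMD8, was −3.50 for TRPM4, 1.82 for SLC7A11, −1.27 for UGDH, −1.35 for HSPA5, 1.28 for OAS2, 1.49 for SLFN5 and 2.55 for IFIT2, each with an adjusted p of edgeR's interaction test under the limit. None of these was called when OF library 1, OF library 2 or isotype library 1 of U2932 was left out. Between antibodies in U2932, DTX2 was higher with OF than with R by 0.89, a call that was absent with total counts, all 12 libraries, DESeq2, the replicate block with GC content correction and without OF library 1. With 2 libraries a group, no group was large enough for a test of single outlying libraries.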

How the results depend on the processing

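Among 16 alternatives, 69 of 117 named called genes kept their call in all, 48 lost it in at least 1 and none changed sign. The main counts of 863 higher and 762 lower genes moved by more than 1.5 times to 571 higher with scaling by total counts, 447 and 457 with all 12 libraries, 461 lower with DESeq2, 2736 and 2598 with no limit on the fold change and 216 and 241 at 2-fold. Leaving out 1 library gave 712 to 1039 higher and 578 to 961 lower. The replicate block gave 892 and 783 and kept 1617 of the 1625 calls, all 117 named called genes among them, and it moved the count of no list by more than 1.5 times.

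Genes called between OF and R (1) numbered 0 with total counts, 3 with no filter, 3 with the replicate block, 0 with the block and GC content correction together, 0 with all 12 libraries, 0 with DESeq2 and 0 to 5 with 1 library left out. The 17 genes that differed between the lines became 171 with no filter, 354 with the replicate block, 77 with the GC content correction, 187 with DESeq2 and 0 to 179 with 1 library left out. The replicate block in TMD8, chosen after seeing the data, gave 1387 genes in place of 116. The cause of these moves was not tested.

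Of 63 named genes that were not called, 8 turned sign. With 1 library left out the log2 fold change ran from −0.77 to 0.095 for SLFN12, −0.88 to 0.25 for CD8A, −0.025 to 1.55 for CD14, −0.52 to 0.051 for PECAM1, −0.22 to 0.067 for MKI67, −0.055 to 0.26 for FOS and −0.24 to 0.10 for DTX2. MKI67 had 0.034 with the length correction, and IRF4 had −0.018 with total counts. With 2 libraries a group, genes of few counts are limited by depth.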
